A study of Malus hupehensis with 9 samples.

Results

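In the phloem of A1d a small set of genes lay outside the range of QZ1 and WT in replicates 2 and 3: 64 genes were higher there and 27 were lower, 91 of the 39951 gene identifiers measured. A1d replicate 1, which took no part in choosing them, lay on the same side in 41 of the 64 and 26 of the 27. Over all tested genes it lay above QZ1 and WT in 23.4% and below in 40.2%. The members were chosen on their QZ1 and WT values and the tested genes were not, so these shares are not alike. Phloem is the living bark tissue that carries sugars and signals, and messenger RNA was sequenced from it at bud break in 3 apple rootstocks with 3 replicates each. WT, labelled PYTC, was Malus hupehensis, an Asian crab apple. A1d was derived from it as a mutant that responds only in part to gibberellin (GA), and the labels do not name the mutated gene. QZ1 was a columnar hybrid whose mother was M. hupehensis and whose father was a columnar line of domestic apple, so all 3 rootstocks share M. hupehensis descent and none was treated. The labels and design text do not settle whether replicates were separate trees or whether A1d is 1 clone, so the spread between them may be technical.

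Gibberellins are growth hormones that promote stem elongation and cambial growth. They bind a soluble receptor, which then leads to the breakdown of DELLA proteins, repressors of growth genes; a plant that responds only in part keeps more of that repression and usually stays short. In bark, gibberellin is known for its part in the division of the cambium, the cell layer that forms phloem and wood. The deposited table gives identifiers without names or descriptions, so no member can be given a function here, the gibberellin pathway cannot be looked up in it, and the phloem label could not be checked against marker genes.

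Membership was read from FPKM, the reads of a gene scaled to the length of the gene and to the reads of its library, as x = log2(FPKM + 1). A gene was taken if both A1d replicate 2 and A1d replicate 3 lay at least 1 unit of x above the highest, or below the lowest, of all 6 QZ1 and WT libraries, and if the means of QZ1 and WT differed by under 0.8. Identifiers from MD10G1170000 to MD10G1199999 were left out. Of 27458 remaining genes with at least 1 FPKM in at least 2 of these 8 libraries, 0.233% were higher and 0.0983% were lower. Every member passes that filter by construction. The difference of A1d replicates 2 and 3 from QZ1 and WT is therefore what the members were chosen by, and it is given only as a description. A1d replicate 1 took no part in the choice.

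Library totals were 15684510 to 18022986 reads. A1d replicate 1 stood apart from the other libraries: it listed 18107 identifiers at 0, against 7183 to 9029 elsewhere. Among the 27602 genes kept for testing it listed 24.2% at 0, and the median over genes of its difference in x from the mean of QZ1 and WT was -0.37 units, against -0.04 units for A1d replicates 2 and 3. Results that rest on this library are given below together with that background.

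The 64 higher genes were mostly scarce outside A1d. Their median level, as the mean of A1d replicates 2 and 3, was 8.83 FPKM, and it ranged from 1.48 to 3347 FPKM. The same genes had a median of 0.578 FPKM in QZ1 and 0.476 FPKM in WT. In 27 of the 64 all 6 QZ1 and WT libraries were under 1 FPKM. These 27 genes passed the filter through A1d replicates 2 and 3 alone, and not all had reads in A1d replicate 1. They were detected barely or not at all in QZ1 and WT. For 7 of them no read was found in any QZ1 or WT library, and the level in A1d replicates 2 and 3 was at least 18.4 to 279-fold higher, taking 3 reads over the 6 libraries as the floor. In A1d replicate 1, 6 of these 7 genes had no read either, so their A1d reads came from replicates 2 and 3. Such floors cover counting error only. In whole-tissue RNA, more cells of a type and more RNA per cell cannot be told apart.

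The 27 lower genes showed the converse at modest levels. They had a median of 7.19 FPKM in QZ1, 7.08 FPKM in WT and 0.503 FPKM in A1d replicates 2 and 3. In 16 of the 27 both of these A1d libraries were under 1 FPKM. For 6 of them no read was found in any of the 3 A1d libraries, and the level in A1d replicates 2 and 3 was at least 10.5 to 60.8-fold lower, with a floor of 3 reads over those 2 libraries. No lower gene was abundant: the highest mean over QZ1 and WT was 41.9 FPKM.

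**Figure D1:**
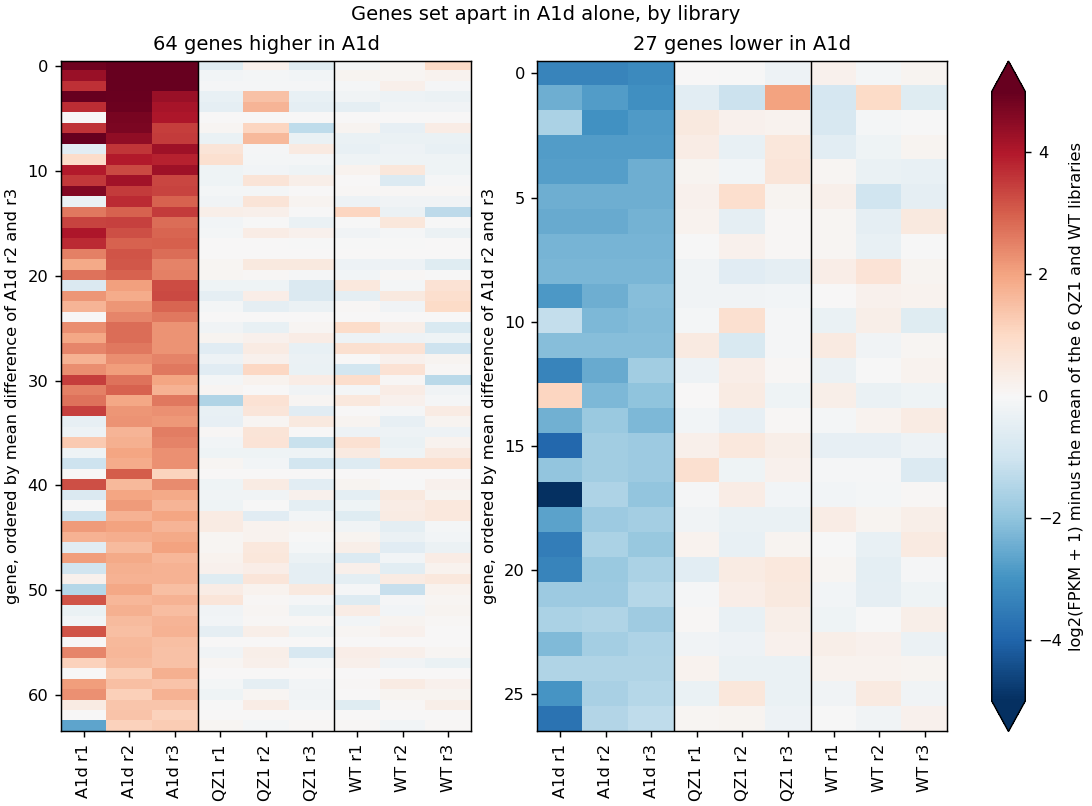
Each row is a member and each column a library (r1 to r3 are replicates); colour gives log2(FPKM + 1) minus the mean of the 6 QZ1 and WT libraries, and colours end at 5 units either way. The rule asked A1d replicates 2 and 3 to lie on the same side of QZ1 and WT. A1d replicate 1 lay above all QZ1 and WT values in 41 of 64 higher genes, against 23.4% of all tested genes. It lay below them in 26 of 27 lower genes, against 40.2%, and was at 0 in 20 of the 27.

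Among the higher genes, MD03G1218400 had the widest separation of all 3 A1d libraries from the rest. It lies on chromosome 3 by its identifier and is 1630 bases long. Its FPKM was 20.8, 43.1 and 56.7 in A1d replicates 1 to 3, then 0, 0.0341 and 0 in QZ1, and 0.218, 0.185 and 0.256 in WT. Even the lowest A1d library was far above every other, and WT held a trace of 5 to 7 reads per library where QZ1 held 1 read in all. The difference of A1d from the mean of QZ1 and WT was 5.10 ± 0.32 log2 units (SE of the limma fit over 9 libraries). MD13G1124300 had 50.9, 154 and 68.9 FPKM in A1d. It had 0.175, 1.09 and 0.174 FPKM in QZ1, and WT had 0.649, 0.940 and 2.42 FPKM. Its A1d libraries differed among themselves, with an SD of 54.8 FPKM, but none came near the others, and the difference was 5.54 ± 0.41 log2 units (SE). With voom on recovered reads the difference of MD03G1218400 was 8.93 log2 units.

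MD13G1238300 was the lower gene with the widest separation. It had 0, 0 and 0.0948 FPKM in A1d, the last value from 4 reads. QZ1 had 9.21, 8.79 and 7.30 FPKM and WT 10.6, 8.20 and 10.03 FPKM. The 6 other libraries spanned a narrow band and the gene was all but missing from A1d, a difference of -3.27 ± 0.22 log2 units (SE). MD00G1066200, whose identifier carries no chromosome number, had no read in any A1d library. It had 7.91, 4.34 and 9.31 FPKM in QZ1 and 3.75, 4.92 and 6.65 in WT, from 17 to 45 reads per library, so A1d replicates 2 and 3 were at least 19.9-fold lower. With a pseudocount of 0.1 in place of 1 the difference of MD13G1238300 was -6.18 and that of MD00G1066200 -5.89 log2 units.

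**Figure D2:**
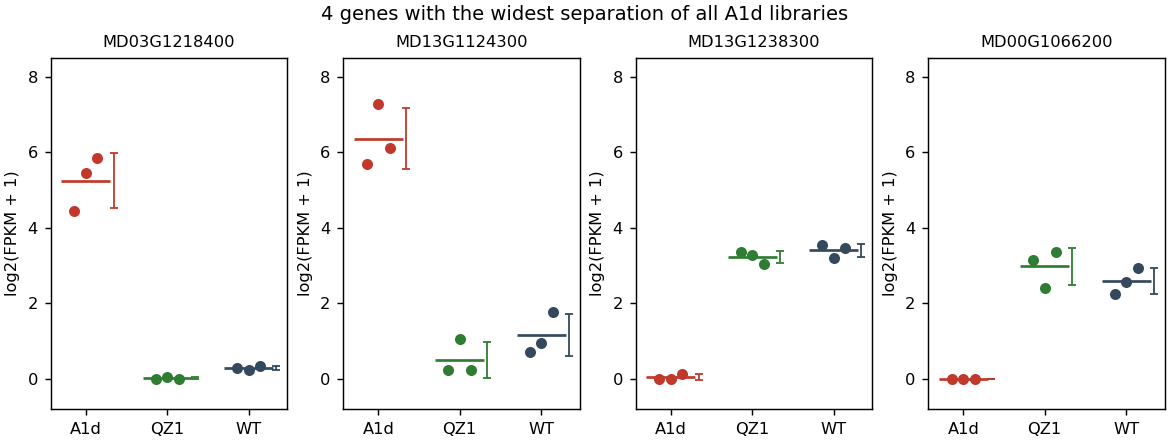
Levels of the 4 genes named by the widest separation of all A1d libraries, as log2(FPKM + 1) on the vertical axis; points are libraries, lines means and bars SD (n = 3). In A1d the higher genes have at least 20.8 FPKM and the lower genes at most 0.0948 FPKM, with no overlap with QZ1 or WT.

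The most abundant members differed by less than the higher genes named above. The difference of A1d from the mean of QZ1 and WT was 1.81 log2 units for MD05G1054800 and 3.02 for MD12G1178500. The median of the higher genes was 2.18 log2 units. Both genes were picked out after their values were seen. MD05G1054800 had 3088, 3266 and 3428 FPKM in A1d. QZ1 had 999, 1049 and 924 FPKM and WT 1020, 758 and 854 FPKM. Its 3 A1d libraries agreed closely and all lay above every QZ1 and WT library, on 60744 to 77478 reads in A1d. MD12G1178500 had 161, 200 and 293 FPKM in A1d. QZ1 had 30.8, 30.3 and 25.1 FPKM and WT 53.8, 20.2 and 9.66 FPKM. Here WT itself varied more than QZ1, and again no A1d library reached the other range.

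A1d replicate 1, which the rule did not use, allows only a limited check on the higher genes. The QZ1 and WT values it is set against were used by the rule. The 64 include the 27 genes under 1 FPKM in all 6 QZ1 and WT libraries. For those 27, any value of 1 FPKM or more in A1d replicate 1 lies above the range. Tested genes as a whole were not chosen this way, so the counts are only a description. A1d replicate 1 lay above all 6 QZ1 and WT values in 41 of 64 (64.1%), against 23.4% of all tested genes. It did so by at least 1 unit in 36 (56.2%), against 4.21%. Of the remaining 23, 15 lay within the range of QZ1 and WT and 8 lay below all 6 values. They were mostly blanks: 21 of the 23 were listed at 0 in this library, among them all 8 below the range. Of the 43 higher genes with any read in A1d replicate 1, 41 lay above the whole range of QZ1 and WT, against 30.9% of all tested genes with reads in it. Leaving out the blanks removes 21 of the 23 genes that did not follow, so this count is a description of the rest. The exceptions were MD08G1184000 and MD15G1154700, at 1.48 and 21.0 FPKM, inside that range; all identifiers in this check were singled out after their values were seen. Tested with limma as a lone library against QZ1 and WT, whose spread it was assumed to share, 38 of the 64 (59.4%) were called higher at a Benjamini-Hochberg adjusted p under 0.05 over all 27602 genes, against 13.0% of all genes. The test compares that library, not the rootstock, with the others, and the QZ1 and WT side of it had been used by the rule. MD02G1071700 was called the other way, at 0 FPKM against 4.56 to 5.53 in QZ1 and WT.

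The blanks in A1d replicate 1 fell on short genes. The 21 higher members at 0 had a median length of 478 bases, and the 43 with reads 1122 bases. At the level of A1d replicates 2 and 3, those 21 would have given 8.32 to 221 reads in this library, with a median of 30.6. The same held for all tested genes: with genes in 4 equal groups by length, A1d replicate 1 listed 48.1% of the shortest (73 to 983 bases) at 0 and 7.15% of the longest (2195 to 18817 bases). In A1d replicate 2 these shares were 8.43% and 0.710%, and in replicate 3 5.71% and 0.304%. The part of this pattern in the members' values was not tested.

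**Figure D3:**
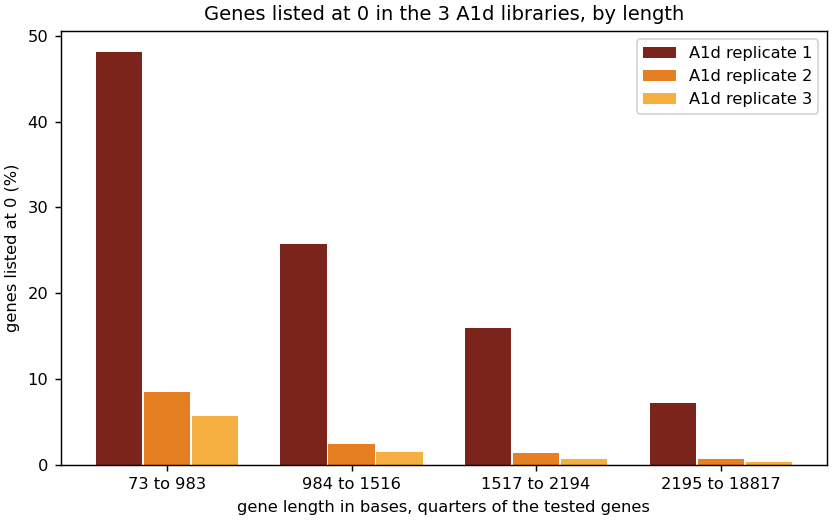
Share of tested genes listed at 0 FPKM (vertical axis, percent) in each A1d library, in 4 equal groups of gene length in bases (horizontal axis). Replicate 1 listed 48.1% of the shortest genes at 0, against 8.43% and 5.71% in replicates 2 and 3.

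The lower genes gave less to check, since A1d replicate 1 lists many genes at 0 whatever their group. It lay below all QZ1 and WT values in 26 of 27 (96.3%), against 40.2% of all tested genes, and by at least 1 unit in 24 (88.9%), against 15.0%. In 20 of the 27 it was at 0, against 24.2% of all tested genes. That share depends on length. In the shortest of the 4 length groups all 13 lower genes were at 0, against 48.1% of tested genes. From the second shortest to the longest group, 5 of 7, 0 of 1 and 2 of 6 were at 0 in A1d replicate 1. Of the tested genes 25.7%, 15.9% and 7.15% were. Of the 7 lower genes with reads in it, 6 lay below the range, against 29.6% of all tested genes with reads in it. The exception was MD05G1179900, with 19.4 FPKM in A1d replicate 1, 1.07 and 1.46 in replicates 2 and 3, and 6.87 to 12.1 in QZ1 and WT. limma called 24 of the 27 (88.9%) lower in the lone library, against 27.0% of all genes, and MD05G1179900 higher. The highest lower gene in QZ1 and WT, MD03G1267100, had 38.0 to 53.8 FPKM there, 13.7 and 9.83 in A1d replicates 2 and 3 and 0 in replicate 1.

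**Figure D4:**
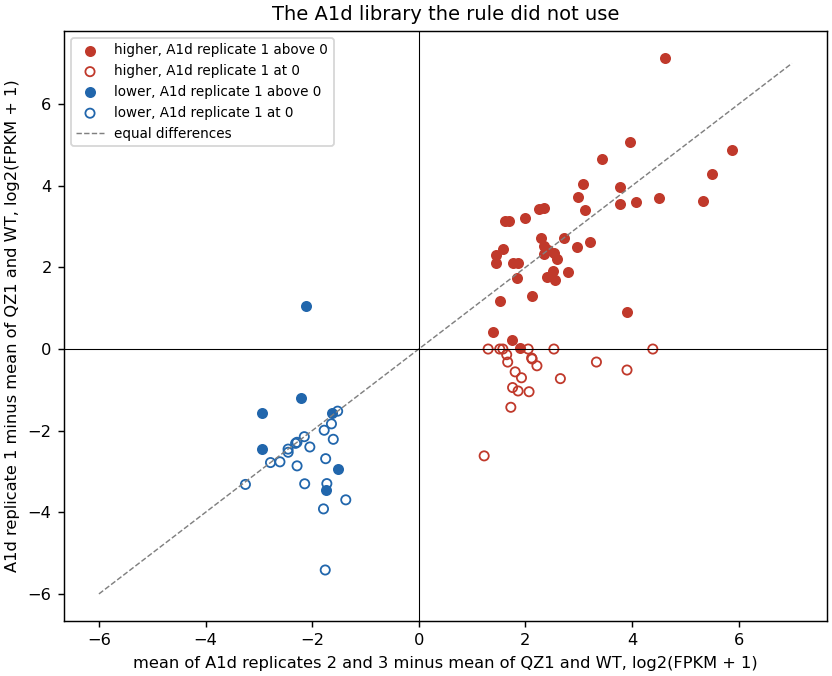
Each point is a member; the horizontal axis gives the difference of A1d replicates 2 and 3 from the mean of QZ1 and WT, the vertical axis that of A1d replicate 1, both as log2(FPKM + 1), and open points are genes at 0 in A1d replicate 1. Filled points of the higher genes scatter on both sides of the line of equal differences. The 21 open points of that group lie at 0 or below, as a gene at 0 FPKM must.

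In the limma fit of all 9 libraries, which contains the contrast the rule used, 38 of the 64 were called higher in A1d than the mean of QZ1 and WT, where 0.808% of all genes were, and 23 of the 27 lower, where 0.935% were. Against WT alone 36 and 20 were called (1.34% and 1.67% of all genes), and against QZ1 alone 37 and 23 (1.71% and 2.53%); both comparisons share the A1d libraries. Nothing is read from these counts. The 38 and 23 calls against the mean of QZ1 and WT became 22 and 9 without A1d replicate 2, where 0.181% and 0.145% of all genes were called. Without QZ1 replicate 3 they became 24 and 15, where 0.221% and 0.261% of all genes were.

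Members lay close together along the chromosomes more often than tested genes lay near a member, a feature the rule did not use. The identifiers have the form of the GDDH13 annotation of domestic apple, whose leading digits name a chromosome and whose last digits follow position, with 00 for sequence not placed on a chromosome; the file does not state this. Of the 87 members placed on a chromosome, 19 (21.8%) had another member within 10 identifiers, whereas 3.93% of placed tested genes had a member that near. These 19 formed 8 groups, each with members of 1 direction only. Within 50 identifiers, 29 members (33.3%) had another and 21 had one of the same direction, against 18.3% of placed tested genes. For 11 members an adjacent identifier was a member of the same direction, whereas 0.468% of placed tested genes had a member adjacent. A further 4 members lay within 10 identifiers of another among those not placed on a chromosome, where identifier order need not be position. Neighbours can share reads where gene models overlap or where 1 transcript was annotated as several genes. The counting method is not given in the sources used here, so this part of the pattern was not tested.

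Chromosome 2 held 14 of the 91 members (15.4%), against 6.43% of the tested genes, and 7 of them lay in a single stretch of 34 identifiers from MD02G1098600 to MD02G1102100. The stretch was picked out after the values were seen. Its first members were lower in A1d. MD02G1098600 had 0, 0.703 and 1.94 FPKM in A1d. QZ1 had 7.22, 11.5 and 9.32 FPKM and WT 7.12, 8.62 and 10.1 FPKM. MD02G1099000, a gene of 5276 bases, had 8.22, 2.33 and 2.84 FPKM in A1d. QZ1 had 37.3, 31.1 and 30.2 FPKM and WT 15.0, 24.6 and 26.1 FPKM. All A1d libraries of both genes lay below every QZ1 and WT library.

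The other 5 members of the stretch were higher in A1d, and all 5 had reads in A1d replicate 1. MD02G1101000 had 25.6, 10.9 and 10.05 FPKM in A1d and at most 1 read in any other library. Its neighbour MD02G1101100 had 6.38, 7.63 and 5.32 FPKM in A1d and 0 to 0.205 in QZ1 and WT. The last 3 were consecutive identifiers and shared a further feature: QZ1 replicate 2 had reads of each, and QZ1 replicates 1 and 3 had none. MD02G1101900 had 180, 38.8 and 24.6 FPKM in A1d, 2.59 in QZ1 replicate 2 and 0.0694 to 0.138 in WT. MD02G1102000 had 41.2, 25.98 and 13.02 FPKM in A1d, 2.86 in QZ1 replicate 2 and no read in WT. MD02G1102100 had 16.8, 39.8 and 22.7 FPKM in A1d, 3.39 in QZ1 replicate 2 and 0 to 0.229 in WT. Between these members lay 15 further tested genes, whose differences in A1d replicates 2 and 3 had a median of 0.23 and ran from -1.42 to 1.51 log2 units, with 3 beyond 1 unit either way. In A1d replicate 1, 5 of the 15 lay over 1 unit above the mean of QZ1 and WT and 4 over 1 unit below.

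**Figure D5:**
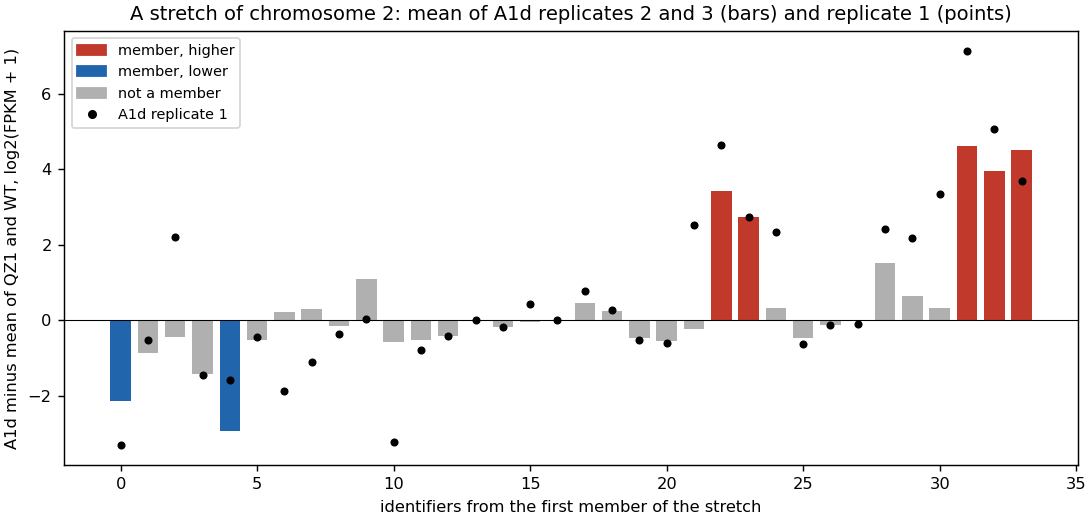
The stretch of chromosome 2, with identifiers in file order on the horizontal axis (counted from the first member, genes not tested included) and the difference from the mean of QZ1 and WT, as log2(FPKM + 1), on the vertical axis; bars are the mean of A1d replicates 2 and 3 and points A1d replicate 1. The 2 lower members open the stretch, the 5 higher members stand in its later part, and most genes between them lie within 1 unit of 0 in replicates 2 and 3.

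QZ1 replicate 2 was the library nearest to A1d more often than the rest, across the members as a whole. It held the highest of the 6 QZ1 and WT values in 21 of the 57 higher genes with any read there, against 4 to 11 for each of the other 5 libraries. Over all tested genes it held the highest value in 16.7%, and each of the other 5 libraries in 10.3% to 25.6%. The median of the 64 genes was 0.918 FPKM in QZ1 replicate 2 and 0.213 to 0.517 FPKM in the others. For the lower genes QZ1 replicate 2 held the lowest value in 10 of 27, against 2 to 5 for the others, and in 17.0% of all tested genes. Each of the others held the lowest value in 13.4% to 22.1% of all tested genes. The rule set its gap on these highest and lowest values, so the counts are only a description. The part of QZ1 replicate 2 in these values was not tested. Without QZ1 replicate 2 the rule took 88 higher and 36 lower genes, of which 58 and 26 were among the 64 and 27.

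The members were also short, by the lengths computed from the FPKM values, each the shortest that gave whole reads. The median length was 873 bases for the higher and 1074 bases for the lower genes, against 1516 bases for all tested genes, with lengths from 205 to 5276 bases. Short and scarce genes rest on few reads: the median higher gene had 304.5 reads in A1d replicates 2 and 3 together and 46.5 in the 6 other libraries. The median lower gene had 20 and 741.

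The same kind of rule was applied to each rootstock with each replicate held out in turn, with A1d represented by its replicates 2 and 3 where it was not the rootstock chosen. For A1d it took 60 to 64 higher and 27 to 92 lower genes. For QZ1 it took 290 to 340 higher and 162 to 326 lower genes, and for WT 219 to 678 higher and 170 to 210 lower genes. The WT count was 678 with replicate 1 held out, and 219 and 245 with replicate 2 or 3 held out. The QZ1 and WT counts rest on 5 other libraries in place of 6, which is easier to pass, and no test of the difference was made.

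Replicate 1 of A1d and of WT followed the other 2 libraries of its rootstock least often among higher genes. There A1d replicate 1 lay above the others in 64.1%, against 85.0% and 90.2% for A1d replicates 2 and 3. WT replicate 1 did so in 66.7%, against 97.3% and 91.0% for WT replicates 2 and 3, and the QZ1 replicates in 92.9% to 99.7%. Among lower genes the shares were 81.5% to 96.3% for A1d, 85.6% to 98.3% for QZ1 and 95.2% to 100% for WT.

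The threshold fell inside a continuous range. The closest higher member had a gap of 1.01 units, with 14.1 and 13.3 FPKM in A1d replicates 2 and 3 against at most 6.09 elsewhere. The closest gene outside had a gap of 0.99, with 0.984 and 1.70 FPKM against 0. Among the lower genes the closest gaps were 1.003 inside and 0.999 outside. Gaps of 1 to 1.1 held 14 of the 64 and 5 of the 27, while 20 and 4 had gaps of at least 2.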

How the data were processed

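Per the labels' protocols, RNA came from a mirVana extraction and stranded TruSeq mRNA libraries were prepared from it. Trimmomatic is named in the submitters' processing notes; the aligner, counter, strand setting, build and annotation were not given in the sources used here. The deposited values were FPKM, a unit taken from the name of the deposited file, for 39951 identifiers in 9 columns, all of them used. Columns were matched to samples by description or title.

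Whole reads, lengths and library totals were computed from the steps of the FPKM values. All 37548 genes above 0 gave whole numbers in all libraries (tolerance 0.0001 reads beyond rounding). The shortest length that gave whole reads was taken. Where the length and all reads of a gene share a factor, both can therefore be too low. The tests used limma 3.58.1 (R 4.3.3) with a trend on mean level, applied to log2(FPKM + 1) of 27602 genes with at least 1 FPKM in at least 2 of the 8 libraries the rule uses. Fold changes on this scale understate those of low genes. The limma fits and the recovery of reads were tested on simulated data. For the fits, the simulation gave all libraries of a gene the same spread, A1d replicate 1 included. It therefore does not cover the outlying state of that library. Python 3.11.15, numpy 2.4.6, pandas 2.3.3 and matplotlib 3.10.9 did the rest. With no gene names, the 2 members of each direction with the largest gap between all 3 A1d libraries and the rest are named by rule; other identifiers were singled out after their values were seen. The members, rule and tests were chosen with earlier results of these data known. Genes that are near-identical copies may share reads. The marker and pathway lists planned for this tissue were not tested, since the identifiers could not be paired with names here.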

Additional observations from a re-analysis of the deposited data

How the results depend on the processing

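Counts are given as higher then lower genes. The rule took 243 and 144 genes with a gap of 0.5, 29 and 11 with a gap of 1.5, and 132 and 100 with a pseudocount of 0.1, of which 38 and 25 were among the 64 and 27. It took 36 and 24 when A1d replicate 1 also had to pass, 41 and 18 with QZ1 and WT within 0.4, and 77 and 34 with no such limit. Quantile normalization gave 75 and 19, median-of-ratios scaling 62 and 24. Leaving out 1 library gave 66 to 212 and 28 to 119; the highest counts came from a single A1d library, with 212 and 53 without A1d replicate 2 and 152 and 119 without A1d replicate 3. In the fit of all libraries, 38 and 23 members were called (0.808% and 0.935% of all genes). The replicate number as a block gave 24 and 15 (0.239% and 0.239%), voom on the recovered reads 29 and 15 (0.627% and 0.268%), and library weights, 0.0865 for A1d replicate 1, gave 64 and 27 (3.88% and 4.82%). Without 1 library the counts were 22 to 54 and 9 to 26 (0.181% to 0.946% and 0.145% to 1.62%). Same-numbered libraries of different rootstocks had correlations of deviations from -0.169 to 0.040. These deviations are from means of 3 libraries and cannot decide whether the numbers pair the samples. For A1d replicate 1 alone, the median difference of members from QZ1 and WT was 2.01 and -2.45 log2 units. Over all tested genes it was -0.37. That fit holds 1 A1d library, and the share of all genes it called moved with the setting. Its call counts are therefore not compared here. It lay beyond QZ1 and WT in 41 and 26 members, and in 36 to 48 and 24 to 26 under other settings. Scaling moved the median of A1d replicate 1 from -0.37 log2 units as deposited to -0.09 with TPM and -0.40 with median-of-ratios scaling. No A1d-to-other difference of the 4 genes named by rule changed its sign. They were chosen for the widest separation of all 3 A1d libraries, so nothing is read from this. Low reads limit the scarce members, and the outlying A1d library limits every check made with it.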
